A study of Homo sapiens with 4 samples.

Results

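Peaks of the transcription factor SMAD1 were examined at 5 homeobox genes, MSX1, MSX2, DLX3, DLX5 and DLX6, in H1 human embryonic stem cells (hESCs), an established cell line. All peaks within 100 kb of a gene body were taken from the untreated list and from the BMP4 list, with the gene positions in the human genome build hg19. This gave 7 peaks of the 12885 in both lists, of which 6 were in the BMP4 list (7682 peaks) and 1 was in the untreated list (5203 peaks). DLX5 and DLX6 lie 9.35 kb apart and share their peaks, so the 5 genes form 4 loci.

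Occupancy of SMAD1 was measured by ChIP-seq, in which DNA fragments pulled down with an antibody to the factor are sequenced. Cells of both groups were maintained in mTeSR1 medium on Matrigel, and the treated group received BMP4 at 50 ng/ml for 60 min. The series holds 4 samples, which are a SMAD1 ChIP and an input for each group, and the replicates were merged by the authors before peaks were called, so each condition is 1 list. No value below therefore has a replicate error, no contrast of the conditions was testable, and the lists do not give the depth of the libraries. Peak lists carry no measure of cell identity markers, so the cell type label was not checked.

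BMP4 binds receptors at the cell surface that phosphorylate SMAD1, SMAD5 and SMAD8, which join SMAD4, enter the nucleus and bind DNA at GC-rich elements and at the short GTCT element. MSX1 and MSX2 encode muscle segment homeobox proteins, which act mainly as transcriptional repressors and are long known as BMP responsive genes in the limb, the teeth, the neural tube border and the neural crest. The DLX genes encode homeodomain proteins related to Drosophila Distal-less and occur as linked pairs. DLX5 and DLX6 act in craniofacial and bone development, and DLX3 acts in the placenta, the epidermis, hair and teeth.

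The 250 bases before the gene start are given for MSX1, MSX2 and DLX6, the genes with a BMP4 peak within 5 kb of the gene body. No such sequence was matched for DLX3 and DLX5. The sequences are from RefSeq, build GRCh38.p14, all on the plus strand, and their coordinates cannot be set against the hg19 positions of the peaks. Capitals mark matches, on either strand, to the GC-rich letters GGCGCC and GGAGCC and to GTCT.
MSX1, chr4:4859415-4859664: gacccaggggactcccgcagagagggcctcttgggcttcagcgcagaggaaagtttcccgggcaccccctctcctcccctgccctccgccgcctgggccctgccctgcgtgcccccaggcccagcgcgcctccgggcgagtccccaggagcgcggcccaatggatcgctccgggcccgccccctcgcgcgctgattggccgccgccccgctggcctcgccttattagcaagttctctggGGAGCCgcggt
MSX2, chr5:174724332-174724581: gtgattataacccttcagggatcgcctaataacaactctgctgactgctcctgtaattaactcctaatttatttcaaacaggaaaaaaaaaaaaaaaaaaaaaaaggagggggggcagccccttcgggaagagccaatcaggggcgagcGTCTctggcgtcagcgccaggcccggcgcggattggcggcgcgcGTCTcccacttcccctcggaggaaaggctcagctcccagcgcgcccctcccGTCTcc
DLX6, chr7:97005303-97005552: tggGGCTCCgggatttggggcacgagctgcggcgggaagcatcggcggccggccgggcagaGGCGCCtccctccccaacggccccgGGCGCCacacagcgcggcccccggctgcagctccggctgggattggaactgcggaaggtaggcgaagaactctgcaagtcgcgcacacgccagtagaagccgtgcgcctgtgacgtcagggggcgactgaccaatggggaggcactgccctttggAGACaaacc
No peak of either list lay in the 250 bases before the hg19 gene starts. The nearest BMP4 peak to the hg19 start was 7403 bp away for MSX1, 3005 bp for MSX2 and 3337 bp for DLX6. Whether these starts match the ends of the printed sequences was not checked.

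The DLX6 sequence held 2 matches to GGCGCC and 1 to GGAGCC (as its reverse complement GGCTCC), and MSX1 held 1 match to GGAGCC. The MSX2 sequence held neither, but had 3 matches to GTCT, against 1 in DLX6 (as AGAC) and 0 in MSX1. Of 35116 sequences of the same length before human gene starts, 16.4% held GGCGCC, 30.6% held GGAGCC and 77.5% held GTCT. The palindrome GTCTAGAC, which contains GTCT in both orientations, was in 0.182% of them and in none of these 3. The matches describe letters in these windows and are not binding sites measured here.

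After 60 min of BMP4, all 5 genes had a SMAD1 peak within 100 kb, whereas in untreated cells only the DLX5 and DLX6 locus had one. The strongest peak lay just upstream of MSX2, followed by a peak upstream of DLX6 and a peak on the 3' side of DLX3. DLX4 is the next protein-coding gene on that side of DLX3, and the peak was not placed relative to DLX4. The peaks around MSX1 had lower scores. By rank, only the strongest peak lies within the far smaller number of BMP4 peaks that the study states. The score is the value given to each peak by the peak caller and was read as 10 times -log10 of its p-value, with a minimum of 50 in both lists, so sites with scores under 50 were not listed.

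All 6 BMP4 peaks lacked a partner, that is, no peak of the untreated list overlapped them by 1 bp or more. In the whole BMP4 list 87.3% of peaks (95% interval 86.6 to 88.1, exact binomial) lacked a partner, so the absence of partners was close to what the list as a whole showed. The untreated peak lacked a partner as well, as did 81.7% of untreated peaks. The loci were set against tiles of 205 kb, the median length of the windows searched, laid over all chromosomes. The tiles were not matched to the loci for gene content or GC content. A BMP4 peak was present at 4 of 4 loci and in 35.8% of tiles, and an untreated peak at 1 of 4 loci and in 23.9% of tiles. A BMP4 peak without any untreated peak was present at 3 of 4 loci (MSX1, MSX2 and DLX3), against 24.1% of tiles. No test was made on these shares, because the genes were chosen with earlier results of these data known.

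**Figure D1:**
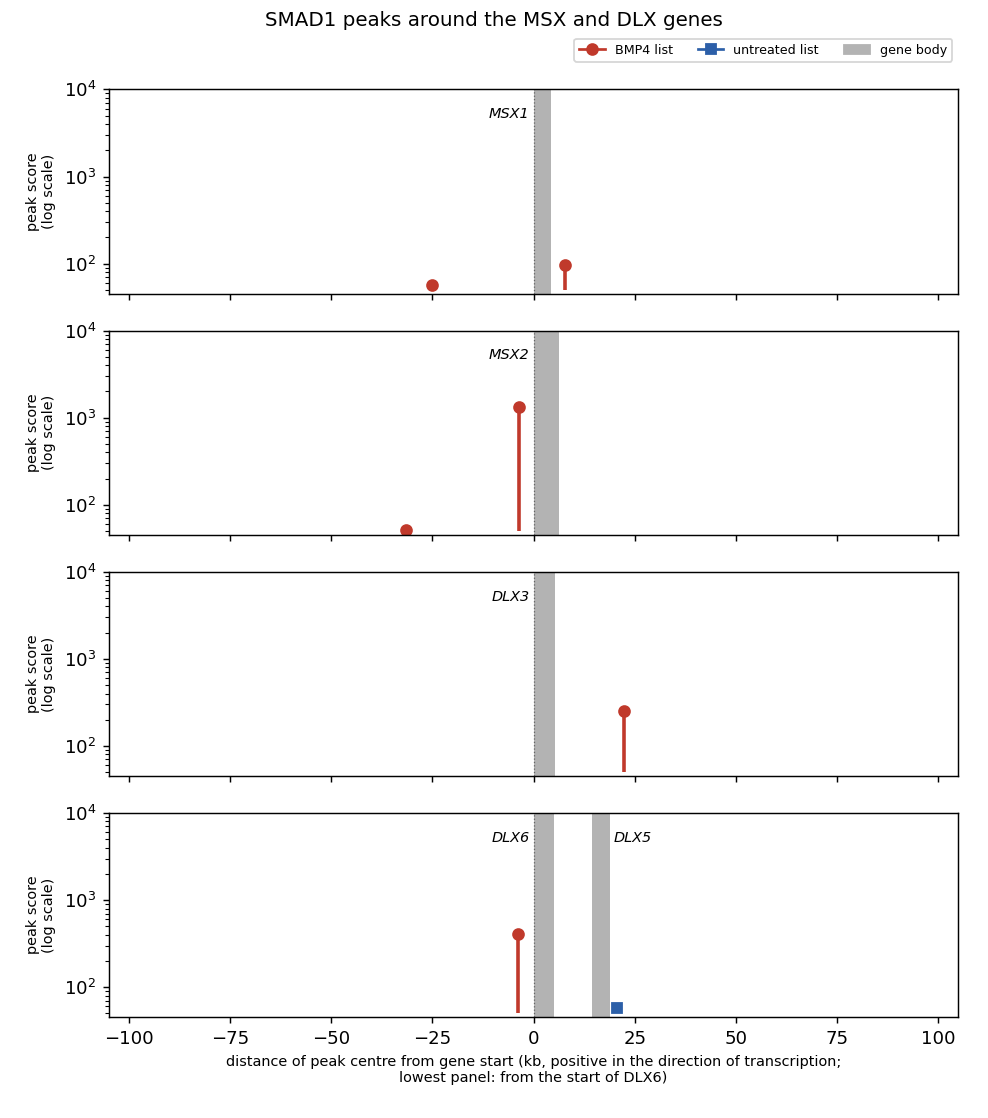
Score of each SMAD1 peak (vertical axis, log scale, stems drawn from 50) against the distance of its centre from the gene start in kb, positive in the direction of transcription, for MSX1, MSX2, DLX3 and the DLX6 and DLX5 pair, with gene bodies in grey. Red circles are the 6 BMP4 peaks and the blue square is the untreated peak, and none of them touches a gene body.

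MSX2 had the highest-scoring peak of the set. In the BMP4 list it lay at chr5:174147403-174148569 (hg19), 3005 bp upstream of the gene (chr5:174151575-174157902), and had a score of 1334 and a width of 1167 bp. The untreated list had no peak within 190 kb of MSX2, and from the peak itself the nearest untreated one was 200 kb away. This BMP4 peak ranked 298 of 7682 by score and 4 among the 6708 BMP4 peaks without a partner. Of the 298 BMP4 peaks that scored at least as high, 4 lacked a partner, which is 1.34% (95% interval 0.367 to 3.40). Few peaks at or above this score thus lacked a partner in the list as deposited. The set ends at the named peak and counts it, here and below for DLX6 and DLX3, so these shares are descriptive only. Nonspecific peaks at transfer RNA genes were not removed from the list. Their part in this share, and in those given below for DLX6 and DLX3, was not determined.

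A further BMP4 peak lay 31.1 kb upstream of MSX2, at chr5:174119813-174120428. Its score of 50.8 was close to the minimum of the list, with 2.76% of BMP4 peaks scoring lower, and its width was 616 bp. The peaks upstream of MSX2 were thus near opposite ends of the ranking and 27.0 kb from each other.

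DLX6 and DLX5 point toward each other, with DLX6 on the plus strand (chr7:96635290-96640352) and DLX5 on the minus strand (chr7:96649702-96654143), so that their gene starts face outward. The BMP4 peak lay outside the DLX6 end, at chr7:96630932-96631952, 3337 bp upstream of DLX6 and 17.7 kb beyond the 3' end of DLX5. It had a score of 410.67, a width of 1021 bp and rank 423, and among BMP4 peaks without a partner its rank was 49. Of the 423 BMP4 peaks that scored at least as high, 49 lacked a partner, or 11.6% (8.69 to 15.0).

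The untreated peak lay at the other end of this pair, at chr7:96655523-96656196, which is 1.38 kb upstream of DLX5 and 15.2 kb beyond the 3' end of DLX6. Its score was 57.1, with 36.7% of untreated peaks scoring lower, and its width was 674 bp. It was 23.6 kb from the BMP4 peak, and no BMP4 peak was nearer to it. DLX5 was therefore the only member whose nearest peak came from the untreated list, at a score near the minimum. Each list thus held 1 peak at this locus, the BMP4 peak outside the DLX6 start and the untreated peak outside the DLX5 start. Whether occupancy at either site differed between the conditions was not tested.

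DLX3 (chr17:48067369-48072588, minus strand) had 1 peak, which was in the BMP4 list at chr17:48049607-48050616. It lay 16.8 kb beyond the 3' end of the gene and 22.0 kb from the gene start, with a score of 250.92, a width of 1010 bp and rank 564. Of the 564 BMP4 peaks that scored at least as high, 136 lacked a partner, or 24.1% (20.6 to 27.9). The nearest untreated peak was 779 kb from it. DLX4, the linked partner of DLX3, is the next protein-coding gene on that side by gene order in GRCh38.p14. No hg19 position of DLX4 was at hand, so the peak was not placed relative to it, and DLX1, DLX2 and DLX4 were not analysed here.

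MSX1 (chr4:4861392-4865660, plus strand) had a pair of BMP4 peaks, both under a score of 100. The nearer one lay at chr4:4868796-4869526, 3135 bp beyond the 3' end, and had a score of 96.03 and a width of 731 bp, with 78.5% of BMP4 peaks scoring lower. The other lay 24.7 kb upstream, at chr4:4836130-4836705, and had a score of 56.25 and a width of 576 bp, with 29.5% of BMP4 peaks scoring lower. The nearest untreated peak to MSX1 was 828 kb away, the farthest of the 5 genes. MSX1 was also the only gene of the set without a BMP4 peak scoring at least 100 within 100 kb.

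**Figure D2:**
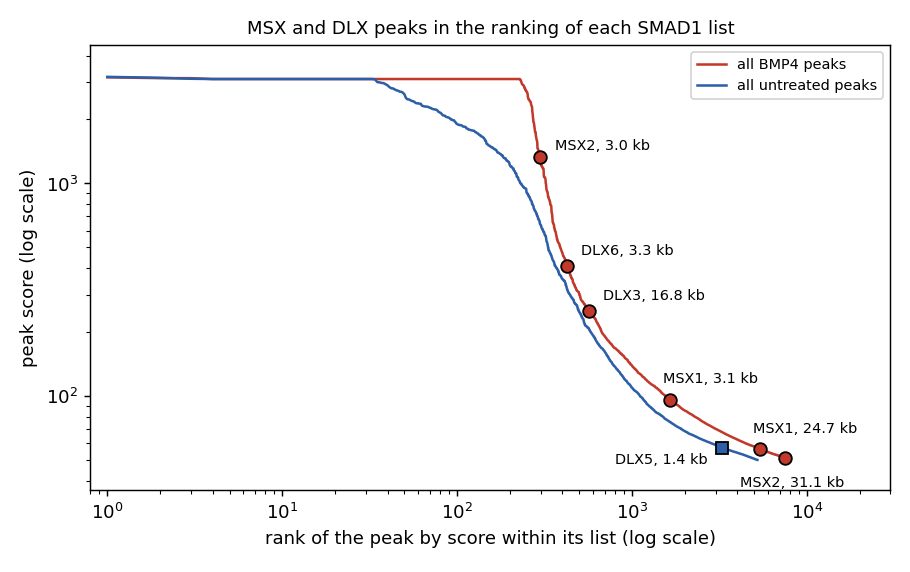
Score of every peak (vertical axis, log scale) against its rank within its list (horizontal axis, log scale). The BMP4 list is the red line and the untreated list is the blue line. Peaks at the MSX and DLX genes are marked by the nearest of the genes examined and its distance. The MSX2, DLX6 and DLX3 peaks rank 298, 423 and 564 in the BMP4 list, whereas the others lie lower on the curves.

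Ordered by score, the 6 BMP4 peaks were at MSX2 (1334), DLX6 (410.67), DLX3 (250.92), MSX1 (96.03 and 56.25) and again MSX2 (50.8). Their median score was 173, against 63.3 over all BMP4 peaks. Of the 6 peaks, 3 reached a score of 100, against 20.2% of all BMP4 peaks, and among those that scored at least 100 in the whole list 58.8% lacked a partner. At this minimum 3 of 4 loci had a BMP4 peak, against 7.83% of the unmatched tiles, and 0 of 4 loci had an untreated peak, against 4.63%. The untreated peak scored under 100, where 21.3% of all untreated peaks reached that value. Scores rise with depth and width, so they were compared only within a list.

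The stronger peaks were also the wider ones. The 3 peaks scoring at least 100 were 1167, 1021 and 1010 bp wide, and the 3 below were 731, 616 and 576 bp wide, so the groups did not overlap. The same held as a tendency for the list, where BMP4 peaks without a partner had a median width of 987 bp (quartiles 898 and 1118) at scores of at least 100 and 646 bp over all scores. The MSX2 peak was wider than 89.9% of all BMP4 peaks, the DLX6 peak wider than 84.0% and the DLX3 peak wider than 83.3%.

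**Figure D3:**
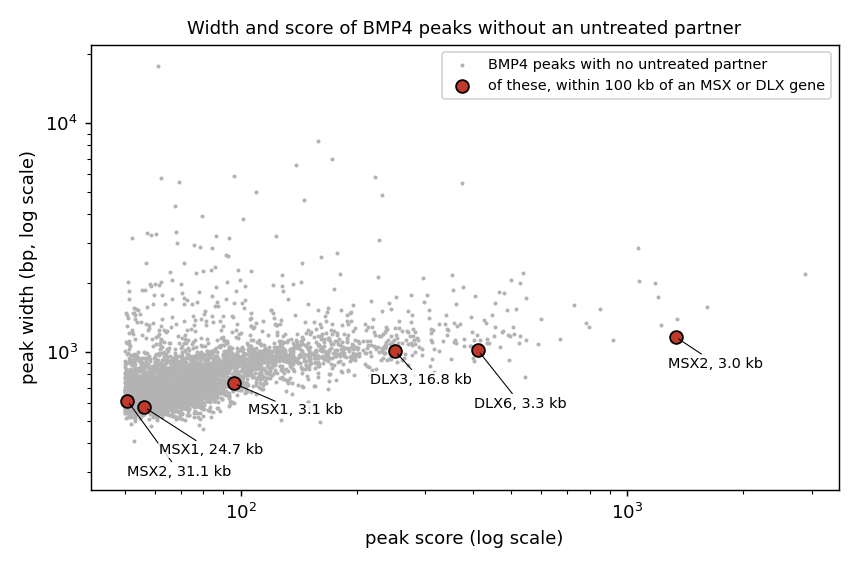
Width in bp (vertical axis, log scale) against score (horizontal axis, log scale) of the 6708 BMP4 peaks without an untreated partner (grey points). The 6 peaks within 100 kb of an examined MSX or DLX gene are in red. Their labels give the nearest of the genes examined and its distance. The peaks at MSX2 (1167 bp), DLX6 (1021 bp) and DLX3 (1010 bp) lie to the right of the others.

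No peak overlapped the body of a member gene. By distance from the nearest member, 3 BMP4 peaks and 1 untreated peak lay within 5 kb, 3 and 0 lay between 5 and 50 kb, and none lay between 50 and 100 kb. The 3 BMP4 peaks within 5 kb, at MSX2, MSX1 and DLX6, were at similar distances of 3005, 3135 and 3337 bp from the gene body. Those at MSX2 and DLX6 lay on the upstream side, whereas that at MSX1 lay on the 3' side. The peak farthest inside the limit was the MSX2 peak at 31.1 kb, and the nearest outside it was a BMP4 peak 128 kb from DLX3, with a score of 66.8 and no partner.

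The BMP4 peaks differed in how isolated they were. The nearest other BMP4 peak was 27.0 kb away at MSX2, 32.1 kb at MSX1, 111 kb at DLX3 and 214 kb at the DLX6 locus, against a median of 109 kb (quartiles 35.6 and 255 kb) for all BMP4 peaks without a partner. The nearest untreated peak was between 23.6 kb (DLX6) and 857 kb (the upstream MSX1 peak) away, against a median of 207 kb (quartiles 70.2 and 479 kb).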

How the data were processed

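SMAD1 ChIP-seq peak lists of untreated and BMP4-treated H1 hESCs were used, and the input samples entered only as background in the peak calling of the authors. By the study's methods and the submitters' processing notes, reads were aligned to hg19 with BWA 0.7.5a, replicate ChIPs and inputs were merged, and peaks were called with MACS 1.4.2 at default settings. The deposited lists give a position and a score for each peak. Whether scores were scaled between lists is not given in the sources used here. Scores were taken to be 10 times the -log10 p-value of the peak, because the lowest score, 50, corresponds to 1e-05, the default limit of the program. The study states far fewer peaks for both conditions than the lists hold, and more for untreated than for BMP4-treated cells. It is therefore not certain that the lists stem from that run. By rank in the deposited list, only the MSX2 peak at rank 298 lies within the number stated for BMP4-treated cells. The DLX6 peak (rank 423), the DLX3 peak (rank 564) and the lower-ranked peaks lie beyond it and may not be among those counted. Nonspecific peaks at transfer RNA genes were not removed.

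Peak starts were converted to 1-based positions. Distances are the bases between the nearer edges of peak and gene body, and upstream and downstream follow the strand in GENCODE v44. Tiles of 205 kb ran from the first to the last listed peak of each chromosome. Intervals are 95% Clopper-Pearson intervals, treat peaks as independent and cover counting error only. Overlap and distance steps were tested on simulated data. All 5 genes and all their peaks within 100 kb are named. The members, motifs and tiles were chosen with earlier results of these data known. Alternatives changed the distance limit, the anchor, the minimum score, the maximum width, the definition of a partner and the length of the BMP4 list. Without an hg19 genome, peak sequences and exons or introns were not used here. Calculations used Python 3.11.15, pandas 2.3.3, numpy 2.4.6 and scipy 1.17.1, and plots matplotlib 3.10.9.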

Additional observations from a re-analysis of the deposited data

How the results depend on the processing

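The numbers of peaks followed the distance limit and the minimum score, as they must by construction. With a limit of 200 kb there were 2 untreated peaks, both without a partner. With 500 kb there were 13 BMP4 peaks, 12 of them without a partner, and 3 untreated peaks, 2 of them without a partner. When peaks scoring under 100 were left out of both lists, 3 BMP4 peaks remained, all without a partner, and the untreated peaks, those without a partner and the genes with an untreated peak all fell to 0. The number of genes with a BMP4 peak fell from 5 to 4, through the loss of MSX1, at a score of at least 100. It stayed at 5 under the other alternatives run for it, and was not recomputed with the shortened BMP4 list. In all, 31 of the recomputed counts stayed within 1.5 times of the reported value and 11 did not. A limit of 50 kb, distances from the gene start, a maximum width of 5000 bp, an overlap of 50% of both peaks, a gap of up to 1000 bp and the shortened BMP4 list moved no count beyond that. With the BMP4 list shortened to the length of the untreated list, however, the BMP4 peaks without a partner fell from 6 to 4. That change is exactly at the limit of 1.5 times. It came from the loss of low-scoring peaks and not from new partners. The upstream MSX1 peak (rank 5396) and the MSX2 peak at 31.1 kb (rank 7465) were no longer in the shortened list. No paired analysis was possible because the samples were deposited as merged lists, 1 for each condition, and nothing was tested between them. Replicates were merged before deposit, so none could be left out. Without read counts or replicates, a change in occupancy was not measurable at any site, and sites with a score under 50 were absent from the lists.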

Other observations

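Between 100 and 500 kb from the nearest member gene there were 7 further BMP4 peaks and 2 further untreated peaks. Of these, the BMP4 peaks had scores between 50.0 and 77.3 and all but 1 lacked a partner. The exception lay 383 kb beyond the 3' end of MSX2, at chr5:174541387-174542299, where the BMP4 peak had a score of 50.03 and the untreated peak that overlapped it had a score of 120 and a width of 1046 bp. The other untreated peak was 190 kb beyond the 3' end of MSX2, with a score of 63 and no partner.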
